A study of Homo sapiens with 6 samples.

Results

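Entry into mitosis is driven by cyclin-dependent kinase 1, and 10 genes of its control were followed here: the kinase gene CDK1, the cyclin genes CCNA2, CCNB1 and CCNB2, the activating phosphatase genes CDC25A, CDC25B and CDC25C, the kinase gene PLK1, and the genes of the inhibitory kinases, WEE1 and PKMYT1. They were chosen by gene symbol for their known role, and each had 1 row among the 36884 genes of the deposited table. All 10 had enough counts to be tested, among 13431 genes tested in all. The libraries came from RPE1 cells, an immortalized, non-transformed epithelial line from the human retinal pigment epithelium, in which LATS1 and LATS2, kinases of the Hippo pathway, had been inactivated with CRISPR-Cas9. One group received siRNA against MK5, the protein kinase encoded by MAPKAPK5, and the other received control siRNA; both carried the LATS1 and LATS2 edits, and cells with intact LATS genes were not analysed here. RNA was taken 48 h after transfection, and each group had 3 libraries, which the submitters call biological replicates. The sources used here state neither whether the edited cells were 1 clone nor the sequence of either siRNA.

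CDK1 needs a cyclin partner to be active. Cyclin A2 acts from S phase to early mitosis, and cyclins B1 and B2 accumulate in G2 and carry the kinase into mitosis. WEE1 and MYT1, the product of PKMYT1, hold CDK1 inactive by phosphorylating it, and CDC25 phosphatases remove those phosphates. PLK1 activates CDC25C and promotes the destruction of WEE1, so that activation, once begun, feeds itself. In cycling cells the transcripts of most of these genes rise towards G2 and mitosis, largely through FOXM1, B-MYB (MYBL2) and the MuvB proteins, and are kept low in resting cells.

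Of the 10 genes, 8 fell after MK5 siRNA and none rose, and the other two, PLK1 and WEE1, did not pass. Over all genes tested, 23.7% fell and 46.2% rose or fell (quasi-likelihood test of edgeR, p adjusted over all genes tested by the Benjamini-Hochberg method, threshold 0.05). The median log2 fold change, MK5 siRNA over control siRNA, was −1.51 over the 10 genes and 0.00 over all genes tested. All 3 MK5 siRNA libraries lay below all 3 control libraries for the same 8 genes, as they did for 29.8% of all genes tested. In bulk RNA, fewer cells in G2 and mitosis and less of these transcripts per cell cannot be told apart. The fold changes are given with the standard error of the edgeR fit, and levels are in CPM, a gene's counts relative to the TMM-scaled total of the library, with the SD over 3 libraries.

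The libraries held between 27188074 and 28236773 counts. MAPKAPK5, the target of the siRNA, was at 17.4, 14.1 and 16.2 CPM in MK5 siRNA replicates 1, 2 and 3, against 35.6, 29.05 and 31.3 CPM in the control replicates (log2 fold change −1.01 ± 0.14, edgeR adjusted p = 0.00169). Control replicate 1 stood apart from the other control libraries. It was at least 2 times the mean of control replicates 2 and 3 for 7 of the 10 mitotic entry genes, and for 6.3% of all genes tested. Its share of mitochondrial counts was 1.09%, against 1.89% and 1.67% in control replicates 2 and 3. MK5 siRNA replicate 1 also had the lowest share of its group, 1.53% against 1.90% and 2.20%. Replicate 1 of both groups had the fewest genes with a count, 17591 in control and 17731 in MK5 siRNA. The other libraries had 18104 to 18307. The part of these differences in the results was not tested. Genes varied between libraries of a group by a common coefficient of variation of 21.2% with all 6 libraries. It was 10.2% without control replicate 1 and 4.63% without replicate 1 of both groups. Results are therefore also given without control replicate 1, or without replicate 1 of both groups. Of the markers that define the tissue, the keratin genes KRT8 and KRT18 and the retinal factors MITF and OTX2 were counted at over 10 CPM in every library, whereas RPE65, RLBP1, TYR and CDH1 had 12 counts or fewer over all libraries together and TTR and EPCAM had 0. The 8 markers of the retinal pigment epithelium summed to 58.2 to 66.1 CPM in MK5 siRNA libraries and to 83.3 to 95.1 CPM in control libraries, and the 6 epithelial markers to 399 to 590.3 CPM in MK5 siRNA libraries and to 766 to 846 CPM in control libraries. Within the retinal list MITF was at 22.4 to 29.1 CPM in MK5 siRNA libraries and 51.02 to 58.7 CPM in control libraries, while OTX2 was at 34.1 to 35.9 CPM in MK5 siRNA libraries and 29.6 to 34.7 CPM in control libraries. The mesenchymal genes VIM, CDH2 and FN1 summed to 6803 to 8739 CPM in MK5 siRNA libraries and to 7073 to 8109 CPM in control libraries. The part of these markers in the results was not tested. The 5 blood markers summed to 0.348 to 0.474 CPM in MK5 siRNA libraries and to 0.183 to 0.295 CPM in control libraries, and no blood or endothelial marker reached 1 CPM on average, although the endothelial gene VWF was at 2.76 CPM in control replicate 1.

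The start regions of the genes were read for the sequences through which cell cycle factors act on them, since 8 of the 10 genes fell. RefSeq windows of 250 bases before to 50 bases after a transcript's start (GRCh38.p14, not the build of the counts) were at hand for 8 of the 10 genes, in 15 windows, of which those of 1 gene can overlap. WEE1 and PKMYT1 had none matched. The 8 genes with windows thus include PLK1, which did not pass, and lack PKMYT1, which fell. The letters searched on both strands were CCAAT, to which the factor NF-Y binds, TTTGAA, the core of the cell cycle homology region (CHR) at which MuvB proteins bind, and its variant TTCGAA; none of them overlapped another. CCAAT stood in 11 of the 15 windows, against 34.6% of all 35116 windows, and CDC25B and CDC25C had 4 windows each. It stood in at least 1 window of all 8 genes. The share of all genes with such a window was not taken, so this count of genes has no background. TTTGAA stood in windows of CDK1, CCNB2, CDC25C and PLK1, in 6 of the 15 windows, against 15.2% of all windows, and TTCGAA in 1 window, of CDC25B, against 1.45%. A match is a description of the letters and does not show that a factor binds.

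The 130 bases before the start are shown for CDK1, CCNB1 and CCNB2, which fell, and for PLK1, which did not pass, so that their layout can be compared. They run 5′ to 3′ along the gene, with capitals for CCAAT, for its complement ATTGG where it lies on the other strand, and for the CHR core TTTGAA. Of the windows of CDK1, the one with more matches is shown. The stretches are chr10:60778348-60778477 for CDK1, chr5:69167020-69167149 for CCNB1, chr15:59105016-59105145 for CCNB2 and chr16:23678759-23678888 for PLK1, all on the plus strand of GRCh38.p14.
CDK1: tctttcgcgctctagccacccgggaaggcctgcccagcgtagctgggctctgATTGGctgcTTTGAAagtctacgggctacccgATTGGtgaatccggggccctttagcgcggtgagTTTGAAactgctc
CCNB1: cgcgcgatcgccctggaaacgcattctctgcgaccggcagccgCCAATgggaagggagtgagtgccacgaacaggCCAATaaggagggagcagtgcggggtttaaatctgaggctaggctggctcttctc
CCNB2: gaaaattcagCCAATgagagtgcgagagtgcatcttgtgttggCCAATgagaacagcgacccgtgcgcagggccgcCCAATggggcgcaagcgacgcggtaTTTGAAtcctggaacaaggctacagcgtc
PLK1: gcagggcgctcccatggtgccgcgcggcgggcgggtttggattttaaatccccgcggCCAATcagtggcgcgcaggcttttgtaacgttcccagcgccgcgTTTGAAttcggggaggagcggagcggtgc

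In CCNB2 the CCAAT boxes began 120, 87 and 54 bases before the start, with TTTGAA 29 bases before it. PLK1 also had TTTGAA 29 bases before the start, with a single CCAAT at 73 bases. CCNB1 had CCAAT at 87 and 55 bases and no TTTGAA. Only TTTGAA and TTCGAA were searched for the CHR, so their absence does not show that a gene lacks one. In CDK1, CCAAT lay on the other strand at 78 and 46 bases, beside TTTGAA at 69 and 13 bases.

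CDK1 (ENSG00000170312), the mitotic kinase itself, had the largest log2 fold change of the 10 with all libraries, followed by CCNB2. It was at 23.8, 30.2 and 30.9 CPM in MK5 siRNA replicates 1, 2 and 3, against 201, 81.4 and 81.1 CPM in control replicates 1, 2 and 3. The groups did not overlap, and control replicate 1 was 2.47 times the mean of the other control libraries. The mean was 28.3 ± 3.90 CPM after MK5 siRNA and 121 ± 69.0 CPM after control siRNA, 4.28-fold lower (log2 fold change −2.10 ± 0.38, edgeR adjusted p = 0.00462). Without control replicate 1 the log2 fold change was −1.52 ± 0.12, and without replicate 1 of both groups −1.41 ± 0.07. CDK1 fell in each of these fits, and in both CCNB2 and PKMYT1 had larger log2 fold changes.

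The cyclin genes fell with it. CCNA2 (ENSG00000145386), cyclin A2, was at 47.3, 43.3 and 45.3 CPM in MK5 siRNA libraries, against 232, 96.0 and 99.4 CPM in control libraries (−1.65 ± 0.35, edgeR adjusted p = 0.00833). CCNB1 (ENSG00000134057), the principal mitotic cyclin, was at 36.6, 35.2 and 40.4 CPM in MK5 siRNA libraries, against 163, 74.0 and 81.6 CPM in control libraries (−1.50 ± 0.30, edgeR adjusted p = 0.00697). In both genes the MK5 siRNA libraries were close together, and the spread of the controls lay in replicate 1. CCNB2 (ENSG00000157456), the Golgi-associated B cyclin, was at 18.9, 23.1 and 23.9 CPM in MK5 siRNA libraries, against 112, 75.5 and 71.7 CPM in control libraries (−1.98 ± 0.20, edgeR adjusted p = 0.000636). Its control replicate 1 stood apart less, at 1.52 times the mean of the others. Without replicate 1 of both groups, the log2 fold change was −1.14 ± 0.07 in CCNA2, −1.04 ± 0.08 in CCNB1 and −1.64 ± 0.07 in CCNB2, and all of them fell. On the union of their annotated exons CCNA2 shares 9.08% of its bases with EXOSC9, which lies on the opposite strand; the strand setting of the counting is not given, so reads there cannot be assigned with certainty.

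**Figure D1:**
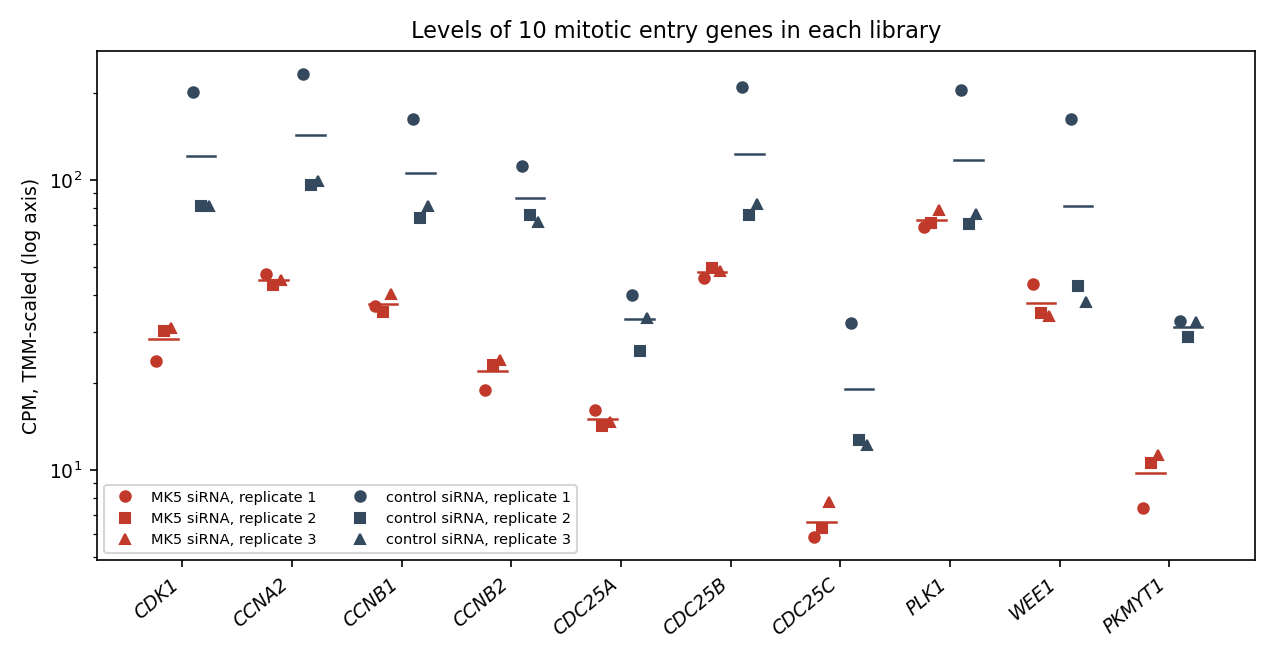
Level of each of the 10 genes (TMM-scaled CPM, log axis) in the 3 MK5 siRNA libraries (red) and the 3 control siRNA libraries (dark); symbols mark the replicate number and bars the group mean. Control replicate 1 (dark circles) is the highest library for every gene, and the MK5 siRNA libraries lie below all controls for each gene but PLK1 and WEE1.

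The CDC25 phosphatase genes fell as well, by different amounts. CDC25A (ENSG00000164045), which acts at the start of S phase as well as at mitosis, was at 16.1, 14.2 and 14.6 CPM in MK5 siRNA libraries, against 40.2, 25.8 and 33.5 CPM in control libraries (−1.15 ± 0.18, edgeR adjusted p = 0.00268). The control libraries of CDC25A were spread rather than parted by replicate 1, and without replicate 1 of both groups its log2 fold change was −1.03 ± 0.11. CDC25B (ENSG00000101224), held to start CDK1 activation at the centrosome, was at 46.0, 49.6 and 48.5 CPM in MK5 siRNA libraries, against 210, 75.5 and 82.4 CPM in control libraries (−1.35 ± 0.39, edgeR adjusted p = 0.0265). CDC25C (ENSG00000158402), the phosphatase that PLK1 activates, was at 5.87, 6.29 and 7.74 CPM in MK5 siRNA libraries, against 32.2, 12.6 and 12.2 CPM in control libraries (−1.52 ± 0.40, edgeR adjusted p = 0.0199).

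The calls of CDC25B and CDC25C depended on which libraries were used. With the replicate number as a block CDC25B changed by −1.18 ± 0.36 and did not pass (edgeR adjusted p = 0.0522). Neither passed when any 1 of the MK5 siRNA libraries was left out, with edgeR adjusted p between 0.0786 and 0.0928 for CDC25B and between 0.0510 and 0.0778 for CDC25C. Both fell when any 1 of the control libraries was left out, with edgeR adjusted p of 0.0187 and 0.0237 for CDC25B, and 0.0204 and 0.0174 for CDC25C, without control replicates 2 and 3. Without control replicate 1 both fell, with log2 fold changes of −0.71 ± 0.08 in CDC25B (edgeR adjusted p = 0.000149) and −0.90 ± 0.15 in CDC25C (edgeR adjusted p = 0.00133). Both fold changes were closer to 0 in that fit, with smaller errors. CDC25C shares 8.78% of its exon bases with FAM53C on the opposite strand.

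PLK1 (ENSG00000166851) was at 68.8, 71.2 and 78.7 CPM in MK5 siRNA replicates 1, 2 and 3, against 204, 70.3 and 76.6 CPM in control replicates 1, 2 and 3. Only control replicate 1 stood apart, and the other 5 libraries lay between 68.8 and 78.7 CPM. Its log2 fold change of −0.68 ± 0.40 did not pass (edgeR adjusted p = 0.203). Within replicate pairs 1, 2 and 3 the differences of log2(CPM + 0.5) were −1.56, 0.02 and 0.04. Without replicate 1 of both groups the log2 fold change was 0.03 ± 0.07 (edgeR adjusted p = 0.674), and without control replicate 1 it was −0.01 ± 0.09. PLK1 shares 11.6% of its exon bases with an uncharacterized gene on the opposite strand.

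The inhibitory kinases of CDK1 differed from each other. PKMYT1 (ENSG00000127564), which encodes the membrane-bound MYT1, was at 7.37, 10.6 and 11.3 CPM in MK5 siRNA libraries, against 32.7, 28.6 and 32.4 CPM in control libraries. Its control libraries were close together, replicate 1 included, at 1.07 times the mean of the others. It was 3.20-fold lower (−1.68 ± 0.19, edgeR adjusted p = 0.000793), and fell likewise when control replicate 1 (−1.64 ± 0.18) or replicate 1 of both groups (−1.47 ± 0.09) was left out. Exons of PAQR4 on the opposite strand cover 24.5% of the annotated exon bases of PKMYT1 and those of KREMEN2 cover 7.15%, so its count is uncertain where they overlap.

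WEE1 (ENSG00000166483), the nuclear inhibitory kinase, was at 43.9, 34.7 and 34.1 CPM in MK5 siRNA libraries, against 162, 43.2 and 38.1 CPM in control libraries. The groups overlapped, since MK5 siRNA replicate 1 lay above control replicates 2 and 3. The log2 fold change of −1.11 ± 0.55 did not pass (edgeR adjusted p = 0.137). Control replicate 1 was 3.995 times the mean of the other control libraries, the widest such gap of the 10 genes. Without it the log2 fold change was −0.11 ± 0.13 (edgeR adjusted p = 0.473). Without replicate 1 of both groups WEE1 fell by 0.24 ± 0.08 (edgeR adjusted p = 0.0101).

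Without control replicate 1, the same number of the 10 genes fell, 8, while 32.1% of all genes tested fell in that fit. Without replicate 1 of both groups 9 fell, WEE1 included, with 37.8% of all genes tested. With the replicate number as a block 7 fell, with 23.9% of all genes tested. None of the 10 rose in any of these fits. The largest changes without replicate 1 of both groups were in CCNB2, PKMYT1 and CDK1, between −1.64 and −1.41, and the smallest were in PLK1 and WEE1.

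**Figure D2:**
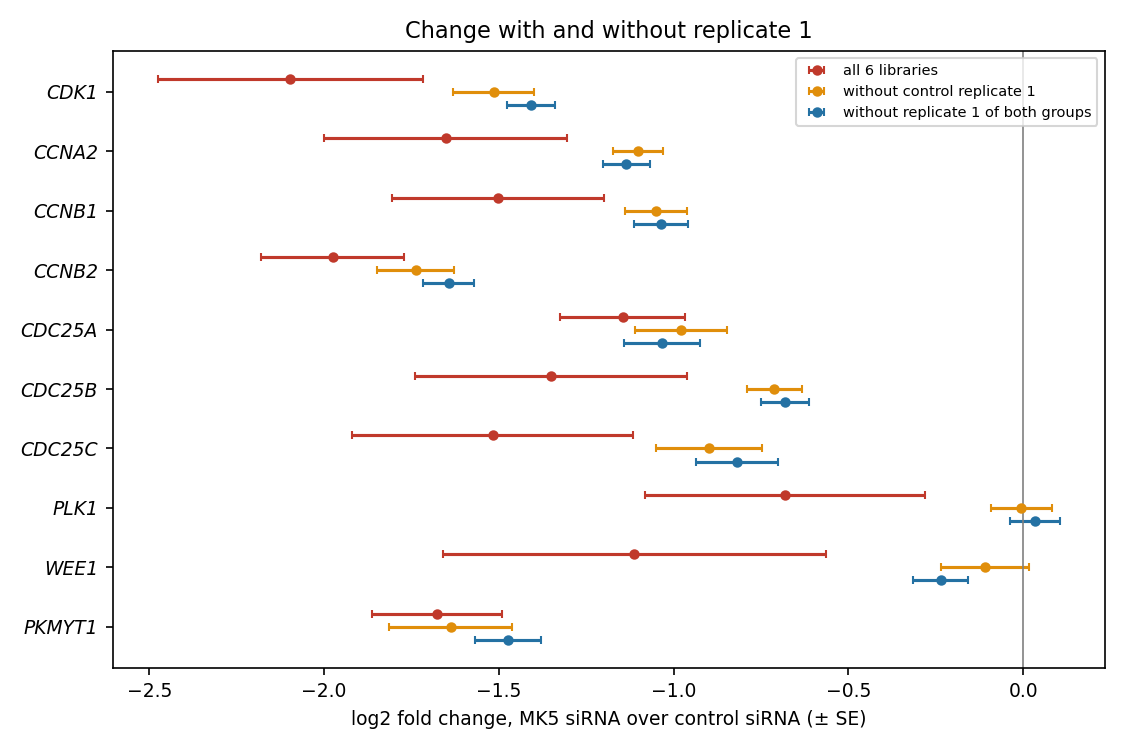
Log2 fold change, MK5 siRNA over control siRNA, of each gene with its standard error, for all 6 libraries (red), without control replicate 1 (orange) and without replicate 1 of both groups (blue). With all libraries CDK1, PKMYT1 and PLK1 lie at −2.10, −1.68 and −0.68, and without replicate 1 of both groups at −1.41, −1.47 and 0.03.

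In the levels of the 10 genes, replicate 1 of the MK5 siRNA group did not stand apart in the same way. It lay between 0.674 times (PKMYT1) and 1.28 times (WEE1) the mean of MK5 siRNA replicates 2 and 3, where control replicate 1 lay between 1.07 times (PKMYT1) and 3.995 times (WEE1) the mean of control replicates 2 and 3. The difference within pair 1 was wider than within pairs 2 and 3 for every one of the 10 genes. In PKMYT1 the library apart in pair 1 was MK5 siRNA replicate 1, at 7.37 CPM against 10.6 and 11.3 CPM in MK5 siRNA replicates 2 and 3. In CDK1 it was −3.05, −1.42 and −1.38 in pairs 1, 2 and 3, and in CCNB2 it was −2.53, −1.69 and −1.57.

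To ask whether a gene changed by another amount than CDK1, its level was set relative to CDK1 in the same library, as a difference of log2(CPM + 0.5), and the 9 differences between groups were tested with an exact two-sided permutation test. With 3 libraries against 3, the smallest p this test allows is 0.10, so none could pass. Of all other genes tested, 93.2% had every MK5 siRNA library above every control library relative to CDK1. The difference was largest for PLK1. It stood at 1.51, 1.22 and 1.34 relative to CDK1 in MK5 siRNA libraries, against 0.02, −0.21 and −0.08 in control libraries, higher by 1.45 (exact permutation p = 0.10, adjusted p = 0.129 over 9 ratios). The groups were apart in every library, control replicate 1 included, and the difference was 1.43 without replicate 1 of both groups. On this scale CDK1 itself changed by −1.95, so a gene with no change would also stand higher relative to it. The separation of PLK1 therefore shows nothing particular to PLK1.

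WEE1 relative to CDK1 was higher by 1.17, at 0.87, 0.20 and 0.14 in MK5 siRNA libraries and −0.31, −0.91 and −1.08 in control libraries (exact permutation p = 0.10, adjusted p = 0.129). CDC25A, CDC25B, CDC25C, CCNB1 and CCNA2 were also higher relative to CDK1, by 0.85, 0.77, 0.64, 0.55 and 0.43, with no overlap of the groups and the same p. Relative to CDK1, every MK5 siRNA library lay above every control library for these 7 of the 9 genes, a smaller share than the 93.2% of all other genes, so the count shows nothing particular to them. The groups overlapped for CCNB2 and PKMYT1, whose differences were 0.02 (exact permutation p = 1.00) and 0.30 (exact permutation p = 0.80). CCNB2 was at −0.32, −0.38 and −0.37 in MK5 siRNA libraries, against −0.84, −0.11 and −0.18 in control libraries, so its overlap rested on control replicate 1. Without that library the difference was −0.21 for CCNB2, with every MK5 siRNA library below both controls and the smallest p that 3 against 2 libraries allow (exact permutation, adjusted p = 0.1125 over 9 ratios). For PKMYT1 it was then −0.10, and it ranged up to 0.54 without control replicate 3.

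**Figure D3:**
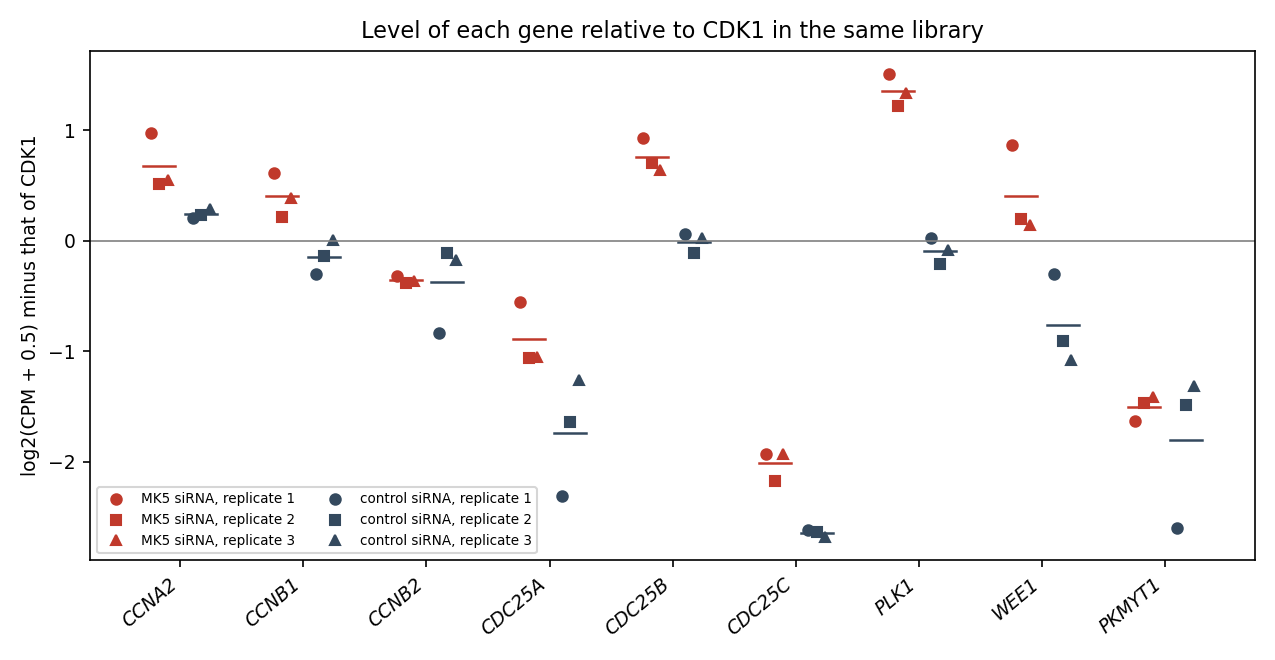
Level of each gene relative to CDK1 in the same library (difference of log2(CPM + 0.5)) in MK5 siRNA (red) and control siRNA (dark) libraries; symbols mark the replicate number and bars the group mean. PLK1 lies between 1.22 and 1.51 in MK5 siRNA libraries and between −0.21 and 0.02 in control libraries, while CCNB2 and PKMYT1 overlap.

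Levels were compared between genes as CPM per kilobase of annotated exon. The length is the union of all annotated exons of a gene, so the order between genes depends on the annotation. After MK5 siRNA the order began with CCNA2 at 16.2 ± 0.707, PLK1 at 15.3 ± 1.09 and CCNB1 at 14.6 ± 1.06 CPM per kilobase, which did not differ beyond their spread, followed by CDC25B at 11.1 ± 0.433. CCNB2 at 7.84 ± 0.947 and CDK1 at 7.20 ± 0.991 overlapped, as did WEE1 at 4.06 ± 0.595 and CDC25A at 3.64 ± 0.233. CDC25C at 1.99 ± 0.294 and PKMYT1 at 1.94 ± 0.416 CPM per kilobase were lowest. In control libraries PLK1 came behind CDK1 and all the cyclins, at 24.5 ± 15.8 CPM per kilobase against 30.8 ± 17.6 in CDK1, and in control replicates 2 and 3 it was at 14.8 and 16.1 against 20.7 and 20.6. PLK1 thus ranked 2 of 10 after MK5 siRNA and 6 of 10 after control siRNA, and CDK1 ranked 6 and 4. Within the CDC25 family CDC25B held between 61.8% and 71.5% of the summed CPM per kilobase in each of the 6 libraries.

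Around the 10 genes, 3 further lists of the pathway were read, drawn up by the known function of their genes but with earlier results of these data known. Over all genes tested 23.7% fell and 22.5% rose, without control replicate 1 32.1% fell and 32.3% rose, and without replicate 1 of both groups 37.8% fell and 37.9% rose. The first holds other proteins that act on CDK1 or its substrates. Of its 35 measured genes, 16 fell, 3 rose and 16 did not pass, with a median log2 fold change of −0.44. Without control replicate 1, 19 fell and 5 rose, and without replicate 1 of both groups 21 fell and 6 rose. The largest falls were in GADD45B, a stress-induced protein that can inhibit CDK1 (21.3 ± 7.40 CPM after MK5 siRNA and 125 ± 52.7 CPM after control siRNA, −2.55 ± 0.36), PPP2CA, a catalytic subunit of the phosphatase PP2A that opposes CDK1 (59.7 ± 3.999 and 189 ± 56.7 CPM, −1.66 ± 0.21), and CHEK1, the checkpoint kinase that restrains CDC25 (18.0 ± 2.08 and 53.5 ± 5.39 CPM, −1.57 ± 0.14), with edgeR adjusted p from 0.000395 to 0.00184. The rises were in ATM, the DNA damage kinase (105 ± 11.005 CPM after MK5 siRNA and 46.6 ± 5.15 CPM after control siRNA, 1.17 ± 0.13), CDK7, which phosphorylates CDK1 in its activation loop (0.50 ± 0.10), and CCNB3, a B-type cyclin at 0.927 ± 0.202 and 0.135 ± 0.149 CPM (2.73 ± 0.71), with edgeR adjusted p from 0.000851 to 0.0187. CCNB3 had no count in control replicate 1, and the size of its change depended on the setting, at 1.18 with limma on log2(CPM + 0.5), 0.46 with limma on log2(CPM + 2) and 3.93 without control replicate 2 in edgeR. It did not pass without control replicate 3, MK5 siRNA replicate 2 or MK5 siRNA replicate 3. CDKN1A, the CDK inhibitor p21, was at 651, 435 and 524 CPM in MK5 siRNA libraries and 454, 542 and 579 CPM in control libraries, and its log2 fold change of 0.03 ± 0.17 did not pass (edgeR adjusted p = 0.895). Without replicate 1 of both groups CDKN1A fell by 0.22 ± 0.07 (edgeR adjusted p = 0.00763).

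The second list holds the machinery that destroys cyclins and WEE1. Of 27 genes, 9 fell, 2 rose and 16 did not pass, with a median of −0.05. With control replicate 1 left out, 9 fell and 7 rose, and without replicate 1 of both groups 11 fell and 8 rose. The falls are near the share of all genes in both of these fits, 32.1% and 37.8%. CDC20, the activator of the anaphase-promoting complex in mitosis, was at 36.6, 48.1 and 47.2 CPM in MK5 siRNA libraries, against 421, 151 and 168 CPM in control libraries (−2.49 ± 0.41, edgeR adjusted p = 0.00333). FBXO5, the complex's inhibitor EMI1, fell, its log2 fold change being −1.62 ± 0.23 (edgeR adjusted p = 0.00187), and so did UBE2C, its ubiquitin-conjugating enzyme, at −1.30 ± 0.39 (edgeR adjusted p = 0.0308), but UBE2C was at −0.69 without control replicate 1 and −0.57 without replicate 1 of both groups, and did not pass with the replicate block or without any 1 of the MK5 siRNA libraries. The subunit genes CDC27 and ANAPC2 rose by 0.46 ± 0.10 and 0.44 ± 0.12 (edgeR adjusted p = 0.00834 and 0.0192), and ANAPC2 did not pass without MK5 siRNA replicate 2 or 3 or without control replicate 2 or 3.

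The third list holds the factors that transcribe mitotic genes. Of 25 genes, 13 fell, 1 rose and 11 did not pass, with a median of −0.49, where 23.7% of all genes fell and 22.5% rose. Leaving out control replicate 1, 14 fell and 5 rose, and without replicate 1 of both groups 15 fell and 5 rose. FOXM1, the forkhead activator of G2 and mitotic genes, was at 17.9, 33.7 and 34.3 CPM in MK5 siRNA libraries, against 164, 109 and 119 CPM in control libraries (−2.19 ± 0.29, edgeR adjusted p = 0.00142). MYBL2, which encodes B-MYB, was at 17.0, 19.8 and 21.6 CPM in MK5 siRNA libraries, against 64.9, 76.4 and 83.2 CPM in control libraries (−1.94 ± 0.15, edgeR adjusted p = 0.000260). In MYBL2 control replicate 1 was the lowest control library, unlike in the 10 mitotic entry genes. E2F2, an activator of S phase genes, fell, its log2 fold change being −2.44 ± 0.35, and so did E2F8, a repressor of the same family, at −2.17 ± 0.35 (edgeR adjusted p = 0.00202 and 0.00293). LIN37, a MuvB subunit, rose by 0.86 ± 0.26 at 1.95 ± 0.177 CPM after MK5 siRNA and 1.08 ± 0.235 CPM after control siRNA (edgeR adjusted p = 0.0320), and did not pass without any 1 library other than control replicate 1, or with no filter on low counts.

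**Figure D4:**
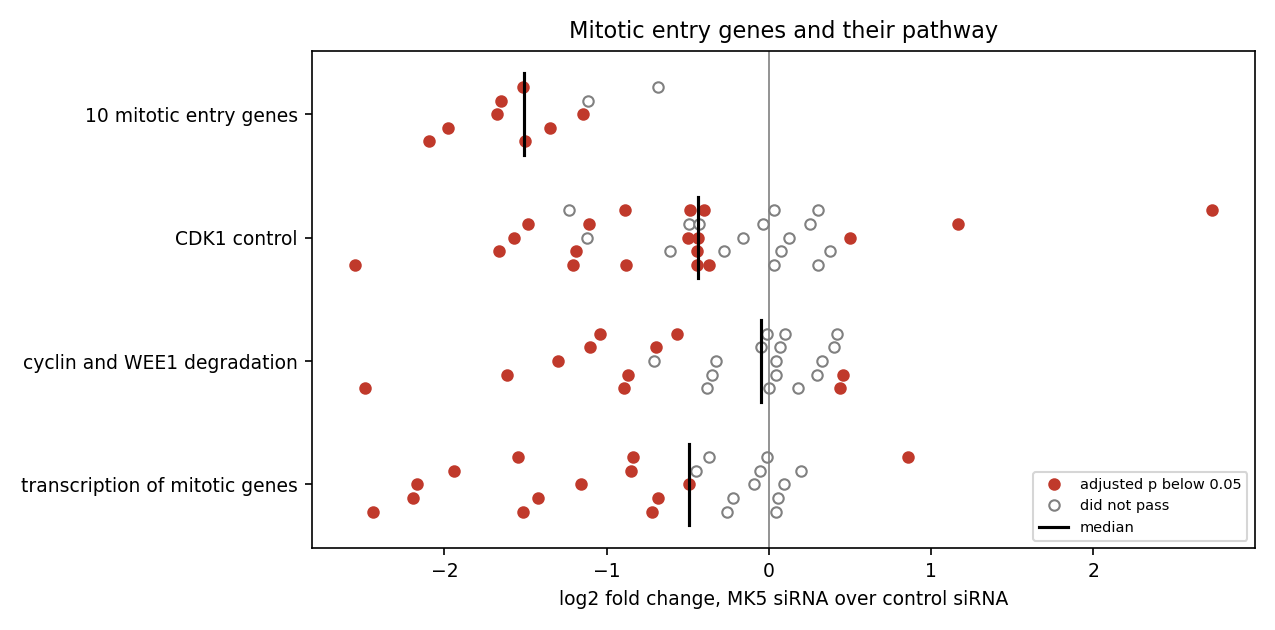
Log2 fold change, MK5 siRNA over control siRNA, of the 10 mitotic entry genes and of the measured genes of 3 further pathway lists; filled points passed at an adjusted p below 0.05 and vertical bars mark the medians. The 10 genes lie between −2.10 and −0.68 with a median of −1.51, and the lists have medians of −0.44, −0.05 and −0.49.

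The profile nearest to that of CDK1 over the 6 libraries was sought among 10481 other genes averaging 5 CPM or more, as the root mean square difference of centred log2(CPM + 0.5) values. The nearest were DDIAS, an anti-apoptotic protein linked to DNA damage (0.08), DEPDC1B, which acts in release of adhesion before mitosis (0.09), ANLN, the cytokinesis protein anillin (0.10), PLK4, the kinase of centriole duplication (0.10), and RMI2, a subunit of the BLM complex (0.10). ANLN was at 78.2, 96.8 and 97.6 CPM in MK5 siRNA libraries and 690, 307 and 290 CPM in control libraries. It was chosen for its likeness to CDK1 over these same libraries, so its peak in control replicate 1 follows from the choice. Among the mitotic entry genes CCNB2 ranked 50 by nearness to CDK1, CCNA2 67, CCNB1 112, CDC25C 133, CDC25B 236, PKMYT1 298 and CDC25A 583. WEE1 ranked 1113 and PLK1 1484, so these 2 were the farthest of the members from CDK1.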

How the data were processed

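RNA-seq counts of 6 libraries were used. Per the submitters' processing notes, FastQC, Trimmomatic 0.36, TopHat2 2.1.1 and HTSeq 0.9.1 were used with GRCh37; their settings, the annotation release and the strandedness are not stated in those notes or the labels. The deposited values are whole-number counts of reads per gene, made by the authors and not normalized, despite a file name that mentions CPM. In R 4.3.3, edgeR 4.0.16 kept genes by filterByExpr (least count 10, least total 15), scaled libraries by TMM and fitted the quasi-likelihood test of the 2 groups with no block; p-values are two-sided and were adjusted over all genes tested (Benjamini-Hochberg, threshold 0.05). Other settings tried were DESeq2 1.42.0, limma 3.58.1, other scaling and filters, a replicate block and libraries left out. Exon lengths and overlaps came from GENCODE 29 (GRCh38), matched by gene ID, and start regions from RefSeq (GRCh38.p14). Replicate numbers are shared by the groups. Across genes, same-numbered libraries deviated together from their group means (correlations 0.258, 0.206 and 0.248). The numbers were taken as pairs, from the data and not from the labels, only in the replicate block and the differences within pairs. The main fit and the permutation test of the ratios used no pairs. Replicates 2 and 3 of different groups also correlated, at 0.182 and 0.151, so these values set replicate 1 apart but hardly part replicate 2 from 3. The common coefficient of variation between replicates was 4.63% without replicate 1 of both groups. The p-values set a difference between groups against the spread between these libraries. They do not measure how far a result would hold in another experiment. The genes and lists were chosen with earlier results of these data known. Named outside the 10 are MAPKAPK5, FOXM1, MYBL2, CDKN1A, up to 3 rises and 3 falls of passing genes per list with the largest changes, and the 5 genes nearest to CDK1. In the first list CCNA1, GADD45G and SFN were under the filter.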

Additional observations from a re-analysis of the deposited data

How the results depend on the processing

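The number of the 10 genes that changed lay between 6 and 9 over 15 alternatives and was 8 in every one that changed the scaling, the filter or the tool with all 6 libraries and no block. CDK1, CCNA2, CCNB1, CCNB2, CDC25A and PKMYT1 fell in all 15. CDC25B did not pass with the replicate block (−1.18), and lay between −1.63 and −0.71 over fits that left out 1 library; CDC25C lay between −1.78 and −0.90 over the same fits. The replicate block changed no other call of the 10 genes or of the ratios to CDK1. The exact sign-flip test of those ratios over 3 pairs allows no p below 0.25. For the lists, whose alternatives were chosen after seeing the data, it gave 19 of 35, 11 of 27 and 15 of 25 changed genes. In that fit 6359 of all 13431 genes tested changed. Without replicate 1 of both groups PLK1 was at 0.034, and WEE1 was at −0.24 and past the threshold. In that fit 10372 of 13690 genes tested changed, in place of 6206 of 13431, at its lower spread between libraries. Of the 27 genes of the degradation list 19 changed in place of 11, in each fit a smaller share than that of all genes tested. The CCNB2 to CDK1 ratio was −0.23 without replicate 1 of both groups and lay between −0.21 (without control replicate 1) and 0.15 over fits that left out 1 library; the PKMYT1 to CDK1 ratio was −0.039, and between −0.10 (without control replicate 1) and 0.54. CDKN1A was at −0.22 without replicate 1 of both groups, −0.06 without control replicate 1, and between −0.13 (without MK5 siRNA replicate 1) and 0.17 over fits that left out 1 library. The cause of these changes was not tested.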

Other observations

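Among the proteins around CDK1, the 14-3-3 genes, whose products hold phosphorylated CDC25 in the cytoplasm, were singled out after their values were seen. All 6 that were measured fell, where 23.7% of all genes tested fell; since they were chosen by their values, nothing is read from this count. YWHAZ was at 576, 615 and 630 CPM in MK5 siRNA libraries, against 1153, 1125 and 1096 CPM in control libraries (−0.89 ± 0.10, edgeR adjusted p = 0.000735), and its control replicate 1 did not stand apart. YWHAG was at 193, 187 and 180 CPM in MK5 siRNA libraries, against 231, 400.3 and 403 CPM in control libraries (−0.88 ± 0.22, edgeR adjusted p = 0.0147). The log2 fold changes of YWHAB, YWHAQ, YWHAE and YWHAH were −0.50 ± 0.11, −0.49 ± 0.10, −0.44 ± 0.12 and −0.44 ± 0.10. YWHAG and YWHAH did not pass without MK5 siRNA replicate 2 or 3, nor YWHAQ without MK5 siRNA replicate 2. YWHAE did not pass without MK5 siRNA replicate 2 or 3, without control replicate 2 or 3, or on library totals alone (−0.35).

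MASTL, the Greatwall kinase that restrains PP2A in mitosis, was at 15.2, 15.4 and 17.2 CPM in MK5 siRNA libraries, against 52.0, 28.5 and 30.0 CPM in control libraries (−1.21 ± 0.25, edgeR adjusted p = 0.00726). ENSA, its substrate, was at 149.96, 149 and 158 CPM in MK5 siRNA libraries, against 66.1, 152 and 152 CPM in control libraries, and did not pass (0.30 ± 0.30, edgeR adjusted p = 0.439). Control replicate 1, the highest control library for the 10 mitotic entry genes, was the lowest of all 6 libraries for ENSA. Both genes were named after their values were seen.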
